A study of Mus musculus with 8 samples.

Results

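The mitochondrially encoded transcripts were taken as every row of the pooled expression table whose gene symbol starts with mt-, which gave 9 of the 2000 genes: mt-Nd1, mt-Nd2, mt-Nd3, mt-Nd4, mt-Nd5, mt-Cytb, mt-Co1, mt-Atp6 and mt-Atp8. The members were chosen by name and not by level, but with earlier results of these data known. How the 2000 genes of the table were chosen is not given in the sources used here. The mouse mitochondrial genome carries 13 protein-coding genes among 37 genes in the GENCODE M21 annotation, and the other 4, mt-Co2, mt-Co3, mt-Nd4l and mt-Nd6, were not analysed here, nor were the 2 ribosomal and 22 transfer RNA genes. A mitochondrial share in the following text is therefore the share of a cell's UMIs (unique molecular identifiers, the counted molecules) that came from these 9 genes, and not from all mitochondrial RNA.

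The cells came from tumours of Hepa1-6, an established mouse hepatoma line, dissociated with enzymes and read out cell by cell with a droplet-based 3′ RNA library. The labels describe 4 groups: unedited cells (genotype given as WT) with PBS injected intraperitoneally, unedited cells with an antibody against PD-1, Soat1-edited cells with PBS, and Soat1-edited cells with the antibody. Edited tumours are knockouts by their titles but knockdowns by the genotype field, all groups share the Hepa1-6 line, and host strain, tumour number and clone are not given in the sources used here. Each group has 2 entries, with titles ending in cDNA and oligo. The table holds 53528 cells in 6 sets, numbered by the ending of each cell's name. Nothing ties a set to a group or to an entry, and no genotype or treatment was compared. All cells are 1 pooled sample, and the sets are not shown to be separate samples.

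Mitochondria keep a small circular genome whose messenger RNAs encode core subunits of the respiratory chain and of ATP synthase, while all other subunits come from nuclear genes. Nearly all of the messenger RNAs are cut out of long transcripts of 1 strand, at the transfer RNAs that punctuate the genes, and then receive short poly(A) tails. The mt-Nd genes encode subunits of complex I (NADH dehydrogenase), mt-Cytb encodes cytochrome b of complex III, mt-Co1 the catalytic subunit of cytochrome c oxidase, and mt-Atp6 and mt-Atp8 membrane subunits of ATP synthase. In single-cell work a high share of these transcripts is widely used as a sign of damaged cells, and it is also known to differ between cell types.

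The annotated ends of the 9 genes are shown because a 3′ library is primed at poly(A) tails. An annotated end need not be where a tail begins: that of mt-Atp8 lies inside mt-Atp6. Where the tails began was not measured here. Each line gives the last 30 bases of the gene on the + strand of the mouse mitochondrial chromosome (GRCm38, GENCODE M21 transcripts), with the letters of the stop codon in capitals.
mt-Nd1, chrM:3678-3707: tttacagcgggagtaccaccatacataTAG
mt-Nd2, chrM:4922-4951: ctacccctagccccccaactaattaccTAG
mt-Co1, chrM:6843-6872: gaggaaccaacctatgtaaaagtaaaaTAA
mt-Atp8, chrM:7940-7969: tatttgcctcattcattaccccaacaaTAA
mt-Atp6, chrM:8578-8607: gtaagcctatatctacatgataatacaTAA
mt-Nd3, chrM:9777-9806: acacaaaaaggattagaatgaacagagTAA
mt-Nd4, chrM:11515-11544: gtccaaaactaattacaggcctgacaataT
mt-Nd5, chrM:13536-13565: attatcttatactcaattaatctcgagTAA
mt-Cytb, chrM:15259-15288: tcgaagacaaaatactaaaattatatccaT
The 5 genes ending in TAA and the 2 ending in TAG carry a whole stop codon. mt-Nd4 and mt-Cytb end in a single T, and in such genes the poly(A) tail supplies the missing letters of the stop. Their lengths of 1378 and 1144 bases leave a remainder of 1 when divided by 3. Within the genes the longest run of A was 5 to 8 bases.

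mt-Atp8 and mt-Atp6 share 43 bases in different reading frames, shown here because reads from this stretch cannot be assigned to only 1 of the genes. The capitals mark the start codon of mt-Atp6 and the stop codon of mt-Atp8.
Overlap, chrM:7927-7969: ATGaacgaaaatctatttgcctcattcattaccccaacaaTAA
The end of mt-Atp8, the part that a 3′ read of a separate mt-Atp8 transcript would cover, lies inside this overlap. How the authors' counting split such reads is not given in the sources used here, so the values of mt-Atp8 and mt-Atp6 are uncertain with respect to each other.

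UMI counts could be recovered for set 1 alone, which held 9370 cells with 1001 to 261833 UMIs each and a median of 11099. In sets 2 to 6, of 7569 to 11813 cells, every cell had values below 0, so only differences of mean deposited values (natural log scale) are given for them. Classes of cells were gated by marker genes, none of them an mt- gene, and are called "-like". Hepatoma-like cells were 28767 of 53528 (53.7%), T-like 13383 and macrophage-like 4442, against 807 fibroblast-like, 542 monocyte-like, 490 neutrophil-like and 340 NK-like cells, and 4757 cells (8.89%) entered no gate. In set 1 Alb stood at 3478 CPM (UMIs per 1000000 UMIs) in hepatoma-like cells, Cd3g at 689 CPM in T-like, Ncr1 at 306 CPM in NK-like, C1qa at 5278 CPM in macrophage-like, Ly6c2 at 667 CPM in monocyte-like, S100a8 at 3987 CPM in neutrophil-like and Col1a1 at 5118 CPM in fibroblast-like cells. Among the 10 genes of largest fold in each class no marker of another class's list was found, and hepatoma-like cells were led by Wif1, Tff2 and Cxcl15, with none of their own markers. Hepatoma transcripts were also present in the other classes: Alb was at 412 CPM in T-like, 731 CPM in macrophage-like and 1098 CPM in neutrophil-like cells, and a median of 4 or 5 of the 19 hepatoma markers was on in each immune or fibroblast class. Their part in the mitochondrial values of those classes was not tested.

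Over all set 1 cells the 9 genes took 1.66% of the UMIs (95% Poisson interval 1.66 to 1.66), and the median cell had 1.16%, with a range from 0 to 13.5%. Hepatoma-like cells had the highest pooled share of the main classes, 1.72% (1.72 to 1.73), and NK-like and T-like cells followed with 1.23% (1.17 to 1.30) and 1.09% (1.08 to 1.10). The share was 0.814% (0.772 to 0.858) in monocyte-like, 0.777% (0.758 to 0.798) in fibroblast-like, 0.694% (0.665 to 0.723) in neutrophil-like and 0.592% (0.583 to 0.601) in macrophage-like cells. These 95% intervals reflect counting error alone, and the neighbours monocyte-like and fibroblast-like overlapped in them. Spread between cells was wide: the middle 80% of hepatoma-like cells ran from 0.559% to 2.55%, that of T-like cells from 0.655% to 1.67% and that of macrophage-like cells from 0.275% to 0.930%. Depth differed in the same direction as the share between some classes, with a median of 17765 UMIs in hepatoma-like, 4659 in T-like, 2813 in macrophage-like and 1515 in neutrophil-like cells. Its part in the differences was not tested beyond the values in cells of matched depth given below.

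**Figure D1:**
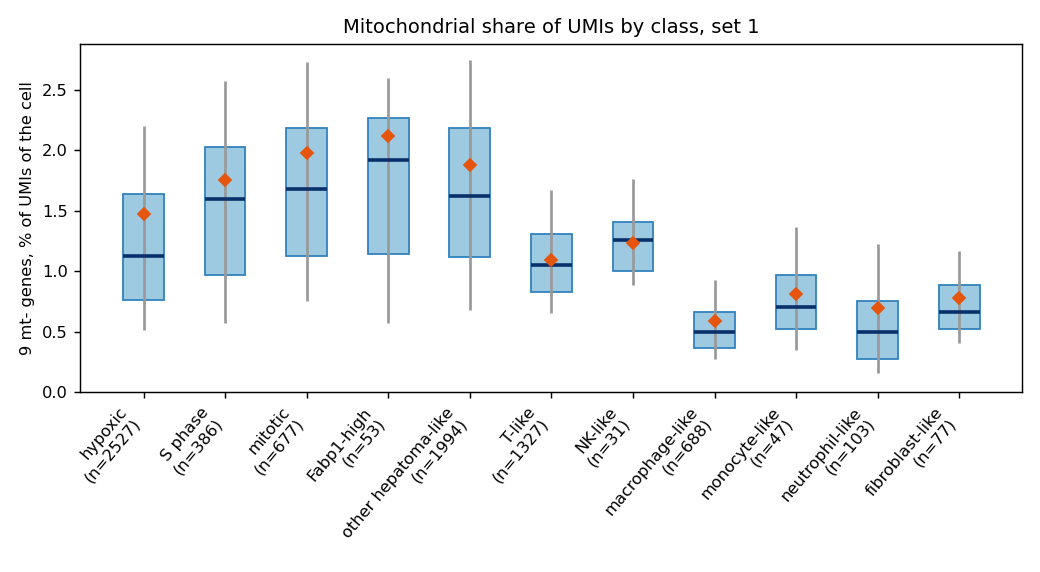
Share of UMIs from the 9 mt- genes in each class of set 1, in percent of a cell's UMIs. Boxes span the quartiles of the cells, dark lines the medians, grey lines the 10th to 90th percentiles, orange diamonds the pooled share, and the hepatoma states sit to the left of the immune and fibroblast classes, with medians from 1.13% to 1.92% against 0.499% to 1.26%.

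mt-Co1 gave the most UMIs, 7669 CPM over set 1, or 46.2% of the UMIs of the 9 genes. mt-Atp6 gave 3325 CPM (20%) and mt-Nd1 2548 CPM (15.3%), so that these 3 genes held most of the signal. mt-Nd4 gave 1006 CPM, mt-Cytb 868, mt-Nd2 643, mt-Nd3 297, mt-Nd5 168 and mt-Atp8 90.5 CPM. Divided by gene length, mt-Co1 stood at 4964 CPM per kb, mt-Atp6 at 4883, mt-Nd1 at 2663 and mt-Nd3 at 855. On the same scale mt-Cytb stood at 759, mt-Nd4 at 730, mt-Nd2 at 620, mt-Atp8 at 444 and mt-Nd5, the longest gene with 1824 bases, at 92.0 CPM per kb. UMIs of a 3′ library count transcript ends and need not grow with gene length, so neither scale is used here to compare levels between genes.

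The order of the 9 genes by UMIs in 9 of the other 11 classes was that of all hepatoma-like cells, and the same count was reached with mean per-cell values. With every cell thinned to 1000 UMIs, 97.7% of hepatoma-like cells had a UMI of mt-Co1, 83.1% of mt-Nd1 and 7.22% of mt-Atp8. In T-like cells these shares were 98.9%, 66.6% and 6.41%, and in macrophage-like cells 90.7%, 52.6% and 3.49%. Without thinning, 61.2% of hepatoma-like cells had a UMI of mt-Atp8. No class of these tissues is known to lack mitochondrial RNA, so no cell type could serve to measure the background of free RNA for these genes.

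Hepatoma-like cells were first compared with T-like cells, the classes with the most cells. The mitochondrial share was 1.58 times as high in hepatoma-like cells (interval 1.57 to 1.59). The complex I gene mt-Nd1 differed most, at 2667 CPM against 1197 CPM, a ratio of 2.23 (2.18 to 2.27). mt-Nd3 followed with a ratio of 2.14 (2.02 to 2.27) and mt-Nd2 with 2.04 (1.96 to 2.12). Those were all complex I members, yet the ratio for mt-Nd5 was the smallest of the 9, at 1.19 (1.12 to 1.26), and mt-Nd4 lay between them at 1.68 (1.64 to 1.73). mt-Co1 stood at 7928 CPM against 5701 CPM, a ratio of 1.39 (1.38 to 1.40). The ratios of mt-Atp6, mt-Cytb and mt-Atp8 were 1.63, 1.56 and 1.43. In all, 8 of the 9 were over 1.25-fold higher, a fold chosen after values had been seen, where 54.5% of the 884 genes with enough UMIs were; the median log2 ratio was 0.70 for the members and 0.80 for those genes. The members' share lay above this background, while their median lay below that of all tested genes. Of 8 dissociation-stress and RNA-quality genes, 5 were over 1.25-fold higher in hepatoma-like cells and 2 lower, where 40.3% of tested genes were lower. The early response gene Ier3 stood at 938 against 162 CPM, and the heat shock gene Hspa1b at 5.25 against 942 CPM. Their part in the result was not tested.

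On the deposited scale, the mean values were higher in hepatoma-like than in T-like cells for all 9 genes in all 6 sets, against 50.4% of the 2000 genes that were higher in all 6. The mean of mt-Nd1 in hepatoma-like cells was 2.98 in the lowest set, 3.07 in the highest and 3.02 at the median. In T-like cells it ran from 2.27 to 2.34 around a median of 2.29, so the classes did not overlap. The mean of mt-Co1 ran from 4.10 to 4.16 in hepatoma-like and from 4.01 to 4.05 in T-like cells, also without overlap but with a smaller gap. How many of the 2000 genes had ranges without overlap was not counted. In cells of 3000 to 20000 UMIs the ratio of the summed shares was 1.27, and with per-cell shares averaged within bins of depth it was 1.43. At 4000 to 8000 UMIs, the bin with the most T-like cells, the pooled shares were 1.17% in hepatoma-like and 1.11% in T-like cells. The medians of the cells there were 0.840% and 1.03%, and at 2000 to 4000 UMIs 0.759% and 1.06%, lower in hepatoma-like cells. In the other bins that both classes filled, pooled shares and medians were higher in hepatoma-like cells.

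The make-up of the mitochondrial UMIs differed between classes along with the total. UMIs of mt-Nd1 per UMI of mt-Co1, a ratio that is not per length and is compared between classes only, were 0.336 (0.335 to 0.338) in hepatoma-like and 0.210 (0.206 to 0.215) in T-like cells. Values of 0.231 (0.193 to 0.275) in NK-like and 0.238 (0.20 to 0.282) in monocyte-like cells were near that of T-like cells. Macrophage-like cells had 0.294 (0.281 to 0.308), fibroblast-like cells 0.299 (0.277 to 0.323) and neutrophil-like cells 0.386 (0.343 to 0.434). T-like cells were the class with the smallest ratio, and neutrophil-like cells had the largest outside the hepatoma states. Over the 6 sets the mean value of mt-Nd1 minus that of mt-Co1 ran from -1.12 to -1.09 in hepatoma-like cells and from -1.78 to -1.67 in T-like cells. In neutrophil-like cells it ran from -1.49 to -1.18 and in macrophage-like cells from -1.59 to -1.39, ranges that overlapped.

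**Figure D2:**
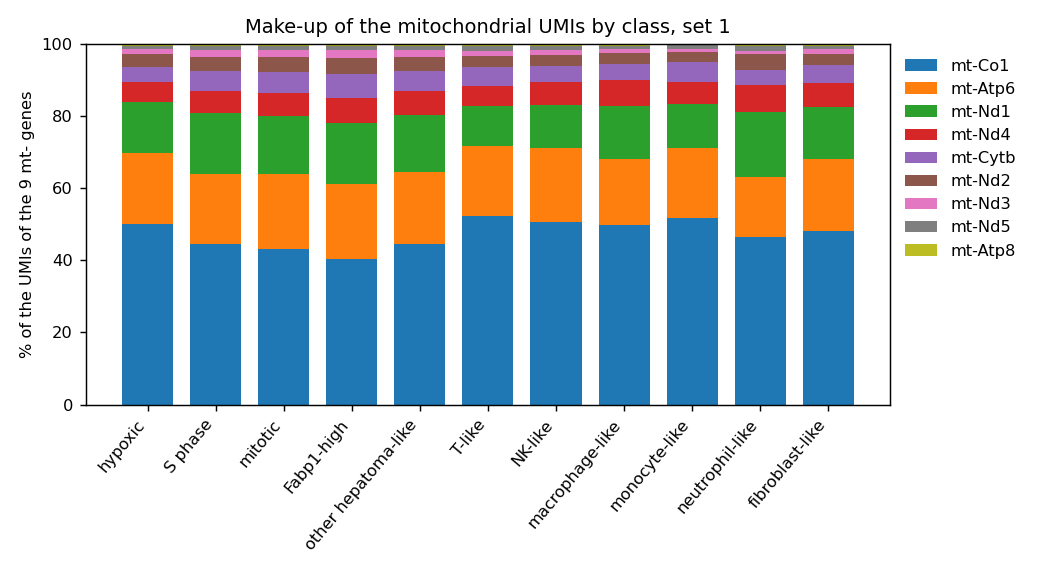
Make-up of the UMIs of the 9 mt- genes in each class of set 1, in percent of their sum, with 1 stacked bar per class. mt-Co1 is the largest segment in every class, and the green segment of mt-Nd1 is narrowest in T-like cells (11%) and 17.9% in neutrophil-like cells.

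Among hepatoma-like cells, the state with hypoxia markers stood out by a lower share. Hypoxic cells, 2527 in set 1, had at least 4 of 9 markers on (Ndrg1, Bnip3, Slc2a1 and others), and the 1994 other hepatoma-like cells were in none of the 4 states. The mitochondrial share was 1.47% (1.47 to 1.47) in hypoxic and 1.88% (1.87 to 1.88) in other hepatoma-like cells, a ratio of 0.784 (0.781 to 0.786). The medians of the cells were 1.13% and 1.62%, and the median depths, 15882 and 17432.5 UMIs, were close. In cells of 3000 to 20000 UMIs the ratio was 0.715, and with per-cell shares averaged within bins of depth 0.771.

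The 9 genes differed by unequal amounts. mt-Nd3 was lowest, at 194 CPM in hypoxic against 372 CPM in other cells, a ratio of 0.523 (0.510 to 0.536). mt-Cytb of complex III stood at 636 against 1041 CPM, a ratio of 0.611 (0.602 to 0.619). The other complex I genes lay close together, at 0.670 for mt-Nd4, 0.684 for mt-Nd5, 0.685 for mt-Nd2 and 0.697 for mt-Nd1. The ATP synthase genes followed at 0.774 (0.768 to 0.779) for mt-Atp6 and 0.806 (0.772 to 0.841) for mt-Atp8. mt-Co1 differed least, at 7361 against 8372 CPM, a ratio of 0.879 (0.875 to 0.883). All intervals lay below 1, and 7 of the 9 genes were over 1.25-fold lower, where 46.4% of the 608 tested genes were; the median log2 ratio was -0.54 for the members and -0.24 for all tested genes. Without mt-Co1 the ratio of the summed share was 0.707.

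**Figure D3:**
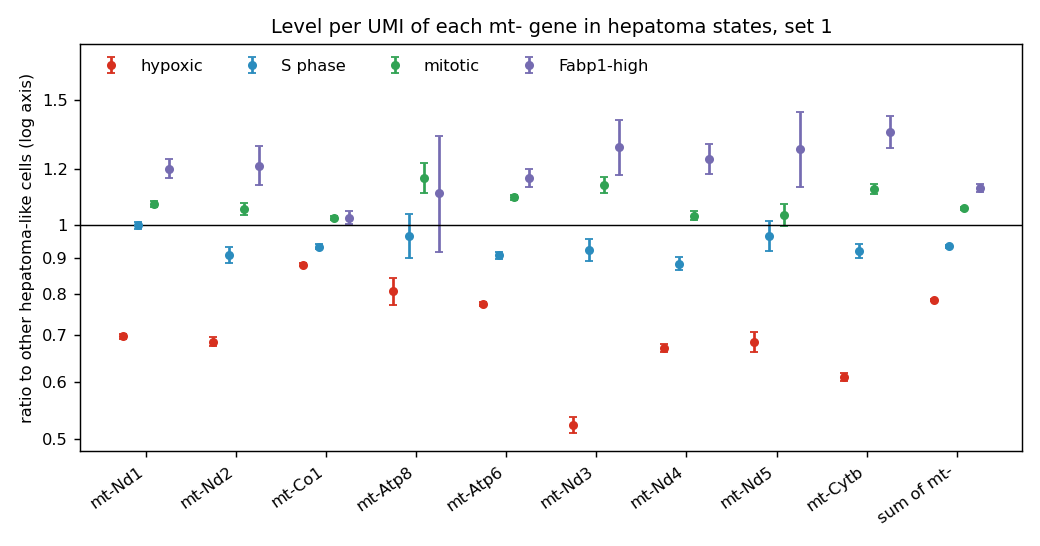
Ratio of each mt- gene's CPM in 4 hepatoma states to its CPM in other hepatoma-like cells of set 1, on a log axis, with 95% intervals for counting error only; the last position is the sum of the 9 genes. The red points of hypoxic cells lie below 1 for all 9 genes, from 0.523 for mt-Nd3 to 0.879 for mt-Co1, while the other states lie between 0.882 and 1.35.

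The same direction was found on the deposited scale in every set. All 54 differences (9 genes in 6 sets) between hypoxic and other hepatoma-like cells were below 0, so that 9 of 9 genes were lower in all 6 sets, where 34.8% of the 2000 genes were. The mean value of mt-Nd3 spanned 0.70 to 0.78 over the sets in hypoxic cells (median 0.75) and from 1.03 to 1.16 in other cells (median 1.10), without overlap. For mt-Cytb the ranges were 1.59 to 1.69 and 1.93 to 2.10, and for mt-Nd1 2.81 to 2.88 and 3.10 to 3.25. For mt-Co1 they were 4.04 to 4.12 and 4.15 to 4.25. These ranges did not overlap, and how many of the 2000 genes had ranges without overlap was not counted. The difference of the mean over the 9 genes ran from -0.32 in set 1 to -0.18 in set 6, with a median of -0.25.

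The share was also lower the more hypoxia markers were on, except at 1 step of the pooled share. Pooled over hepatoma-like cells of set 1, it was 2.09% with no marker on, 1.89% with 1, 1.78% with 2, 1.58% with 3, 1.63% with 4, 1.45% with 5, 1.40% with 6 and 1.37% with 7. The step from 3 to 4 markers, just outside and just inside the gate, went the other way in the pooled share (773 and 800 cells), while the medians of the cells were 1.35% and 1.24%. Median depth was 28106 UMIs with no marker and 14261 to 21157 UMIs with 1 to 7. In cells of 3000 to 20000 UMIs the share was 1.77% with no marker, 1.13% with 6 and 1.16% with 7. On the deposited scale, the mean over the 9 genes was lower with 7 markers than with none in all 6 sets, for example 1.77 against 2.31 in set 1 and 1.85 against 2.09 in set 4. Set 4 was level from 0 to 2 markers, and in sets 4 and 5 the value with 7 markers was slightly above that with 6.

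**Figure D4:**
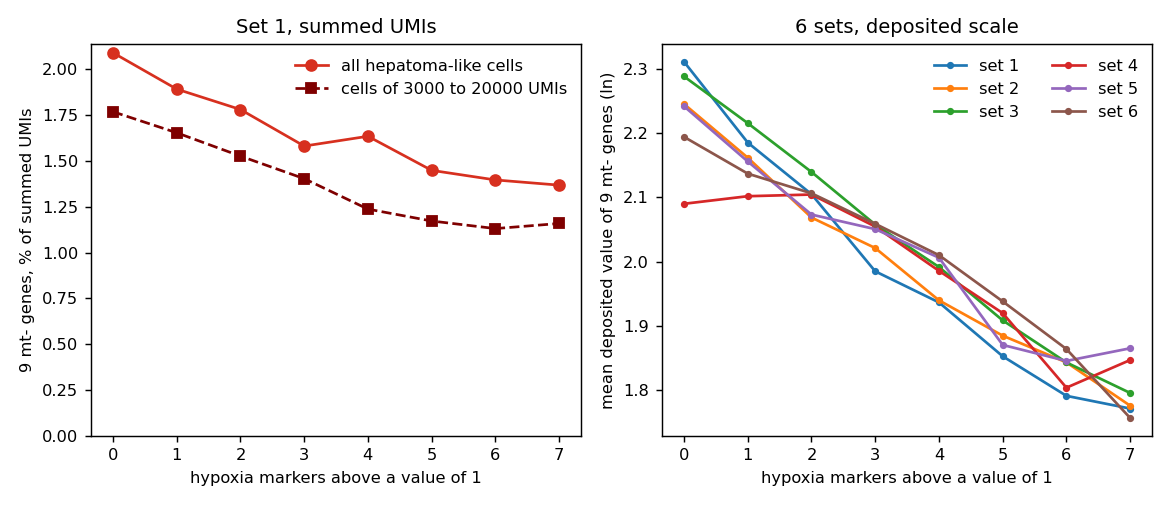
Mitochondrial level of hepatoma-like cells by the number of hypoxia markers above a deposited value of 1. Left, pooled share of UMIs in set 1 for all cells (2.09% to 1.37%) and for cells of 3000 to 20000 UMIs (1.77% to 1.16%); right, mean deposited value of the 9 genes, natural log, with 1 line per set, all ending lower than they start.

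Nuclear genes of related function were followed in the same contrast, from lists chosen by function. Of the nuclear-encoded respiratory chain 5 genes were in the table and 2 had enough UMIs, and both were over 1.25-fold lower in hypoxic cells, where 46.4% of all tested genes were. Atp5g1, a subunit of ATP synthase, stood at 73.8 against 169 CPM, a ratio of 0.436 (0.419 to 0.453). Cycs, which encodes cytochrome c, stood at 92.4 against 157 CPM, a ratio of 0.587 (0.566 to 0.609). The ratio of Atp5g1 was below that of every mt- gene, and that of Cycs lay between those of mt-Nd3 and mt-Cytb. Of the glycolysis list 6 genes were found and 5 had enough UMIs, with 4 over 1.25-fold higher, where 30.4% of tested genes were, and none lower. Pgk1 stood at 1500 against 464 CPM, Gapdh at 1166 against 601 CPM and Aldoa at 766 against 430 CPM. Slc2a1, the fourth, is a marker of the gate, as is Bnip3, the only tested gene of the mitophagy list, so their values are no result. Eno1 was at 107 against 122 CPM. None of the 15 listed genes of mitochondrial DNA upkeep and transcription was in the table.

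Signs of RNA quality were looked at beside this contrast. Of 8 dissociation-stress and RNA-quality genes found, 6 had enough UMIs, and 0 were over 1.25-fold higher and 3 lower in hypoxic cells, among them Hsph1 at 186 against 296 CPM. The 3 of 6 are close to the 46.4% of all tested genes that were lower. Mitotic markers were lower in hypoxic cells for 12 of 12 tested genes, and S phase markers for 5 of 6, above the same 46.4%, although cells past the S phase or mitotic gate were left out of both groups. T and NK markers had too few UMIs to be tested there, with Cd3g at 4.39 against 4.56 CPM. The 1 tested gene of the macrophage list, Gpnmb, was higher in hypoxic cells, at 196 against 89.8 CPM, and the 1 of the monocyte list, Hp, stood at 86.2 against 91.3 CPM. The part of these genes in the mitochondrial difference was not tested.

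Macrophage-like cells with at least as many hypoxia markers on were compared with the other macrophage-like cells. Their share was 0.565% against 0.598%, a ratio of 0.945 (0.907 to 0.984), over 105 and 583 cells. mt-Nd1 had a ratio of 0.855 (0.765 to 0.954), and the intervals of the other 8 genes held 1. Of the 9 genes 1 was over 1.25-fold lower, where 37.1% of the tested genes were. Over the 6 sets 28 of 54 differences were above 0, with 1 gene higher in all 6 (9.15% of the 2000 genes were) and 0 lower (5.45% were), so no common direction was seen on the deposited scale. Pgk1 was at 794 against 405 CPM in these cells. The difference between the hepatoma and the macrophage contrasts was not tested, and the precision for macrophage-like cells was lower.

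The S phase and mitotic states had shares nearer to that of other hepatoma-like cells. In 386 S phase cells the share was 1.75%, a ratio of 0.933 (0.928 to 0.938), and 0 of 9 genes were over 1.25-fold lower, where 21.7% of the tested genes were. mt-Nd4 had the lowest ratio at 0.882 (0.864 to 0.901), and the interval of mt-Nd1, at 0.999, held 1. On the deposited scale 2 of 9 genes were lower in all 6 sets, where 17.4% of the 2000 genes were, 43 of 54 differences were below 0, and the mean over the 9 genes was below 0 in 5 of 6 sets, set 4 being the exception. In 677 mitotic cells the share was 1.98%, a ratio of 1.06 (1.05 to 1.06), with 0 of 9 genes over 1.25-fold higher against 24.8% of tested genes. The median depth of mitotic cells was 26642 UMIs, and in cells of 3000 to 20000 UMIs the ratio was 0.928, on the other side of 1. Over the sets 35 of 54 differences were above 0 and 19 below, and 0 of 9 genes were higher or lower in all 6, where 17.1% and 20.5% of the 2000 genes were, so the direction for mitotic cells was not stable.

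T-like cells with at least 5 mitotic markers on had a summed share of 1.06% against 1.12% in T-like cells with few cycle markers, a ratio of 0.948 (0.934 to 0.963). Their median depths were 7652 and 2839 UMIs. On the deposited scale the mean over the 9 genes was instead higher in all 6 sets, by 0.08 to 0.14, and 7 of 9 genes were higher in all 6, where 25.9% of the 2000 genes were. The only gene lower in all 6, where 8.25% of genes were, was mt-Co1. The summed share and the mean of log values therefore pointed in opposite directions for these cells. In set 1, mt-Co1 was at 5442 against 6050 CPM, a ratio of 0.899 (0.881 to 0.918), and mt-Nd3 at 152 against 129 CPM, a ratio of 1.18 (1.02 to 1.35).

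The 53 Fabp1-high cells of set 1 had Fabp1 above the gate and Apoa2, an apolipoprotein gene, among their leading genes. Their pooled share was the highest of all classes at 2.12% (2.09 to 2.15), a ratio of 1.13 (1.11 to 1.14). In cells of 3000 to 20000 UMIs that ratio was 1.00, with cells in more than 1 state kept 1.01, and with mean per-cell shares 1.06. mt-Cytb had the largest ratio, 1.35 (1.29 to 1.43), and mt-Co1 the smallest, 1.02 (1.00 to 1.05). With 3 of 9 genes over 1.25-fold higher against 43.6% of tested genes, the count was below the background. In mean deposited values 47 of 54 differences were above 0, and 5 of 9 genes were higher in all 6 sets, where 18.1% of the 2000 genes were. mt-Co1 was lower in 4 of 6 sets, and mt-Nd2, mt-Atp8 and mt-Nd5 in 1 set each. Of the monocyte list 2 genes were tested and both were higher in Fabp1-high cells, F10 at 69.3 against 2.26 CPM and Hp at 473 against 91.3 CPM; both encode plasma proteins that liver cells also make. Of the 8 dissociation-stress and RNA-quality genes 2 were over 1.25-fold higher, Hspa1b at 52.7 against 5.26 CPM and Hspa1a at 24.0 against 6.59 CPM, and 5 lower, where 29.2% of tested genes were lower. Their part in the result was not tested. Relative to the other genes of the table, in place of all UMIs, the ratio was 0.834, and Afp, a fetal liver plasma protein gene that is in this denominator, stood at 7755 against 5043 CPM.

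Within the states, mt-Nd1 per UMI of mt-Co1 was 0.281 (0.279 to 0.283) in hypoxic, 0.354 (0.352 to 0.356) in other, 0.370 (0.367 to 0.374) in mitotic, 0.379 (0.374 to 0.384) in S phase and 0.415 (0.400 to 0.431) in Fabp1-high cells. The mean value of mt-Nd1 minus that of mt-Co1 ran from -1.27 to -1.20 over the sets in hypoxic and from -1.05 to -1.0 in other hepatoma-like cells. The make-up thus differed between these states in every set.

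Macrophage-like cells had the lowest share of the classes, and T-like cells 1.84 times their share (1.81 to 1.87). All 9 genes were over 1.25-fold higher in T-like cells, where 42.5% of tested genes were, and the median log2 ratio was 0.98 against -0.52 over all tested genes. mt-Nd5 had the largest ratio, 2.71 (2.28 to 3.23), at 144 against 53.4 CPM, and mt-Nd1 the smallest, 1.38 (1.32 to 1.44), at 1197 against 868 CPM. mt-Co1 stood at 5701 against 2953 CPM. On the deposited scale all 54 differences were above 0, where 25.7% of the 2000 genes were higher in all 6 sets, and the mean over the 9 genes differed by 0.48 to 0.54. Hepatoma-like cells had 2.91 times the share of macrophage-like cells (2.87 to 2.96), with all 9 genes over 1.25-fold higher against 56.3% of tested genes, from 2.37 for mt-Nd4 to 4.42 for mt-Nd3, and all 9 higher in all 6 sets, where 50.2% of the 2000 genes were. These contrasts share the macrophage-like cells. At 4000 to 8000 UMIs the pooled shares were 1.17% in hepatoma-like, 1.11% in T-like and 0.556% in macrophage-like cells. The medians of the cells in this bin were 0.840%, 1.03% and 0.483%.

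The smaller myeloid, NK and fibroblast classes rest on few cells. Monocyte-like cells (47 in set 1) had 1.38 times the share of macrophage-like cells (1.30 to 1.45), with 4 of 9 genes over 1.25-fold higher against 33.3% of tested genes, led by mt-Cytb at 1.81 (1.41 to 2.29). Fibroblast-like cells (77) had 1.31 times that share (1.28 to 1.35), with 7 of 9 genes over 1.25-fold higher against 50.2%. The mean over the 9 genes was above that of macrophage-like cells in all 6 sets for both classes, by 0.10 to 0.24 and by 0.09 to 0.30. Of the 9 genes 4 and 5 were higher in all 6 sets, where 12.2% and 28.2% of the 2000 genes were. NK-like cells (31) had 1.13 times the share of T-like cells (1.07 to 1.19), with 1 of 9 genes over 1.25-fold higher against 34.7%. Their mean value was above that of T-like cells in 5 of 6 sets and below it in set 4, with 3 genes higher in all 6 (6.65% of the 2000 genes were) and 2 lower (32.6% were).

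Neutrophil-like cells (103 in set 1, median of 10 mitochondrial UMIs) had 1.17 times the share of macrophage-like cells (1.12 to 1.23), while the medians of the cells were 0.499% in both. mt-Nd2 had a ratio of 1.76 (1.41 to 2.19) and mt-Nd1 of 1.43 (1.28 to 1.59), and mt-Co1 of 1.09 (1.02 to 1.16). Of the 9 genes 3 were over 1.25-fold higher against 49.7% of tested genes, and 1 lower against 34%. In mean deposited values 34 of 54 differences were below 0, so the scales did not give a common direction. mt-Nd2 was the only gene higher in all 6 sets, by 0.07 to 0.57, where 10.7% of the 2000 genes were.

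**Figure D5:**
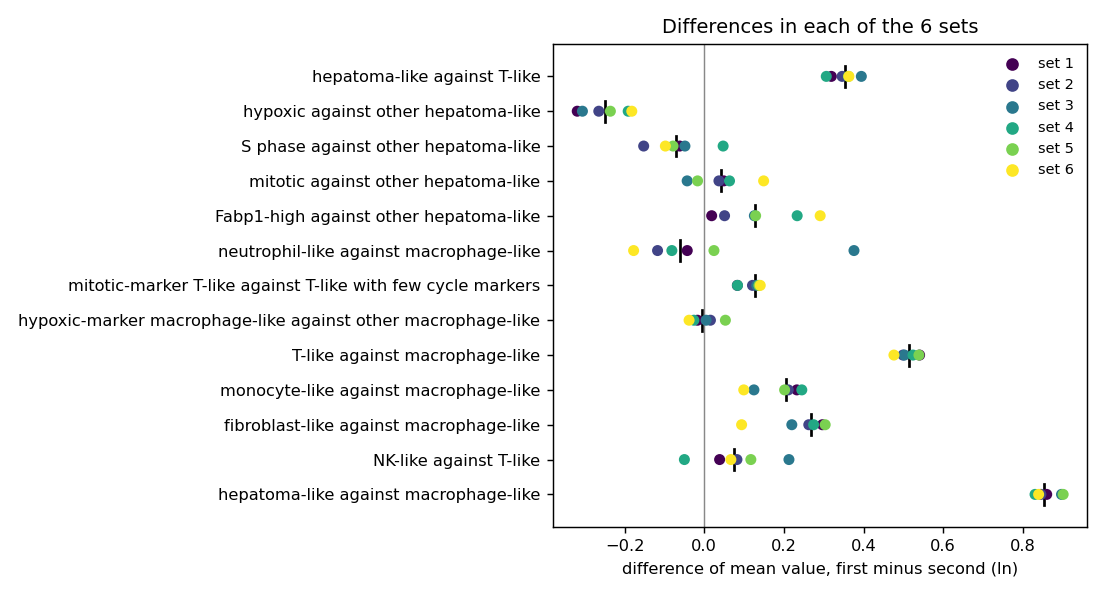
Difference of the mean deposited value (natural log, mean over the 9 genes) for each contrast, first class minus second, with 1 point per cell set and a black bar at the median. Points of hepatoma-like and T-like cells against macrophage-like cells lie right of 0 in all 6 sets, hypoxic cells lie left of 0 in all 6, and neutrophil-like cells have 1 set (0.38, set 3) apart from the others.

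The members varied together between cells, most of all in hepatoma-like cells. Over the 36 gene pairs, with depth held constant, the partial correlation across 3217 hepatoma-like cells of 3000 to 20000 UMIs ran from 0.275 to 0.809 with a median of 0.541. The highest was that of mt-Co1 with mt-Atp6 and the lowest that of mt-Atp8 with mt-Nd3. In T-like cells the median was 0.232 (848 cells) and in macrophage-like cells 0.0892 (323 cells). The cells of a class come from set 1 alone and the counts of the rarer genes are sparse, so these are descriptions. The difference in depth between the classes was not removed. The share itself went with depth in hepatoma-like cells, with 2.06% in cells of 1000 to 2000 UMIs, 1.17% in those of 4000 to 8000 and 2.23% in those above 64000. Spearman's rho of the share with depth was 0.349 in hepatoma-like, -0.076 in T-like and 0.003 in macrophage-like cells.

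By the rule for named genes, those with the most similar pattern of log2 CPM over the 11 non-overlapping classes of set 1 were named, out of 1449 ranked. Emc4 had the highest Pearson correlation with the summed share, 0.955, followed by Rpl31 (0.935), Isyna1 (0.927), Rpl15 (0.914) and Rpl10 (0.908). Of these, Rpl31, Rpl15 and Rpl10 encode ribosomal proteins. The most opposite were Zeb2 (-0.938), Marcksl1 (-0.937), Basp1 (-0.933), Ifit1 (-0.925) and Isg15 (-0.909). The 11 points come from set 1 alone, and 5 of them are hepatoma states, so that a contrast of tumour and other cells enters every value. Between hepatoma-like cells, with depth held constant, the highest partial correlations with the share among 838 genes were those of Alb (0.315), Gnas (0.260) and Ttr (0.257). The lowest were those of Cited2 (-0.247), Bnip3 (-0.244) and Pgk1 (-0.237), all weak.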

How the data were processed

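Dissociated tumour cells were sequenced as droplet-based 3′ libraries, per the labels' protocols. The submitters' processing notes name STAR 2.7.2b and the builds GRCh38 and mm10, with no role for either. The authors deposited 1 table of natural log values for 2000 genes, and how these genes were chosen is not given in the sources used here. All 53528 columns have no known sample. Cell names are running numbers without barcodes, so barcodes shared between sets could not be counted. In set 1 the values are the natural log of 1 plus UMIs per 10000. A cell's total was taken as the whole number, within 1e-06, implied by at least 2 values above 0.02. Totals were found for 100% of these cells, and 100% of values gave whole counts within 0.01.

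A marker was on above a value of 1. Hepatoma-like cells had at least 5 of 19 markers on and at most 1 of each immune, fibroblast, endothelial or erythroid list. Other classes had at least 3 of their own and at most 2 of each other such list, with T and NK lists exempt from each other and split by T-specific genes. Hepatoma and state markers were not limited in those classes. States needed 4 hypoxia, 3 S phase or 5 mitotic markers, or Fabp1 on, and 3302 cells in more than 1 state were left out. These thresholds were set after marker counts in set 1 had been seen. Near the cut, 666 set 1 cells had 2 and 361 had 3 S phase markers, and 204 had 4 and 189 had 5 mitotic markers. Scrublet (scanpy 1.11.5, expected rate 6%) called 91 doublets (0.971%) in set 1, which were left out of the counts and kept in means by set.

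CPM and shares are summed UMIs over summed totals, with exact Poisson, conditional (ratios) or Clopper-Pearson intervals (scipy 1.17.1), tested on simulated data. Genes were counted as higher or lower at over 1.25-fold, with a pseudocount of 1 CPM, if at least 20 CPM in either class. No p-value was computed for 1 pooled sample. The members and lists were chosen with earlier results of these data known, and the 1.25-fold rule, the depth bins, the marker gradient and the contrasts within T-like and macrophage-like cells, against macrophage-like cells other than with neutrophil-like cells, and of NK-like with T-like cells after values had been printed. All 9 members are named. Other genes named are the 5 highest and 5 lowest by correlation over classes, the 3 highest and 3 lowest over hepatoma-like cells, and list members. Alternatives were mean per-cell shares, stricter gates, a depth window, doublets kept, another denominator, no mt-Co1, cells in several states, median values and no thinning.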

Additional observations from a re-analysis of the deposited data

Results flagged for a closer look

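In the contrast of neutrophil-like with macrophage-like cells, set 3 lay apart from the other 5 sets. The mean over the 9 genes differed by 0.38 there (natural log scale, neutrophil-like minus macrophage-like), while the other sets ran from -0.18 to 0.02. Set 3 held 35 neutrophil-like cells, against 53 to 143 in the others. The gap to the nearest set was over 0.625 of the whole range, a limit that chance passes in about 1 of 20 groups of values with equal spread. The sets differ in cell number and are not shown to be separate samples, and several contrasts were compared over them. The flag is therefore a description and not a test result.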

How the results depend on the processing

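Ratios of summed shares are listed here in the order hepatoma-like to T-like, then hypoxic, S phase, mitotic and Fabp1-high to other hepatoma-like, then neutrophil-like to macrophage-like cells. As reported they were 1.58, 0.784, 0.933, 1.06, 1.13 and 1.17. With the mean of per-cell shares the first 5 were 1.35, 0.747, 0.927, 1.02 and 1.06. With 1 more marker required they were 1.61, 0.752 and 0.892 for the first 3 and 1.11 for Fabp1-high. In cells of 3000 to 20000 UMIs they were 1.27, 0.715, 0.912, 0.928 and 1.00, so the mitotic ratio crossed 1. Relative to the other table genes they were 1.61, 0.714, 0.995, 1.03, 0.834 and 1.29, so the Fabp1-high ratio crossed 1. Without mt-Co1 they were 1.79, 0.707, 1.08, 1.21 and 1.26, leaving out S phase. With cells in more than 1 state kept, the 4 states gave 0.789, 0.927, 1.00 and 1.01. Averaged within bins of depth, an alternative chosen after seeing the data, the first 5 gave 1.43, 0.771, 0.918, 0.964 and 1.07, so the mitotic ratio crossed 1 again. The other 13 recomputed values stayed within the counting interval or, for a count, within 1.5 times. Median in place of mean values left 54 of 54 differences of hypoxic cells below 0. The cause of these shifts was not tested. No paired analysis was possible because no column is tied to a labelled sample or group; classes were set against each other within each cell set, with no test. The number of cells limits the NK-like, monocyte-like, neutrophil-like and Fabp1-high values, and counting intervals do not hold the spread between tumours, which cannot be measured here. The depth of sets 2 to 6 is unknown, and means of log values depend on depth.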

Other observations

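Cells at the ends of the distribution were described with limits chosen after the shares had been seen. In set 1, 118 of 9279 cells (1.27%, exact binomial interval 1.05 to 1.52) had a share of at least 5%. Of the 6370 hepatoma-like cells, which were most of these 9279, 92 were among them (1.44%, interval 1.17 to 1.77). These 92 had a median of 3368 UMIs against 17765 over all hepatoma-like cells. Cells that entered no gate had a higher rate than hepatoma-like cells, 21 of 636 (3.3%, interval 2.06 to 5.003). T-like cells had a lower one, 4 of 1327 (0.301%, interval 0.0822 to 0.770). Of 103 neutrophil-like cells 1 reached this share (0.971%, interval 0.0246 to 5.29). None of 688 macrophage-like cells did (exact interval 0 to 0.535%), nor did any NK-like, monocyte-like or fibroblast-like cell. Among genes of at least 100 CPM, Gm26917 was the gene most raised in these hepatoma-like cells, at 2663 CPM against 189 CPM in the rest, followed by Gm41609 at 423 against 87.8 CPM. The liver genes Ahsg and Fgg were lower, at 216 against 472 CPM and 471 against 973 CPM.

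At the other end, 196 cells (2.11%) had a share under 0.2%. Among them were 21 of 103 neutrophil-like cells (20.4%, interval 13.1 to 29.5), 27 of 688 macrophage-like cells (3.92%) and 3 of 1327 T-like cells (0.226%). The rest were 51 of 636 cells that entered no gate (8.02%) and 94 of 6370 hepatoma-like cells (1.48%). The median neutrophil-like cell in this group had 1142 UMIs, so that 0.2% is about 2 UMIs. The 94 hepatoma-like cells of this group had the immediate early gene Fosb at 97.2 against 764 CPM in the rest and Thbs1 at 49.9 against 303 CPM. The mitotic genes Nusap1 and Ccnb1 were higher there, at 129 against 40.0 CPM and 182 against 57.9 CPM. This was not particular to the low end. The mitotic gene Mki67 was higher in hepatoma-like cells with a share of at least 5%, at 265 against 115 CPM. Of mitotic cells 2.07% had a share of at least 5% and 2.22% one under 0.2%.

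The cells' names carry a second number, of unknown meaning in the sources used here, that follows the letter N. In hepatoma-like cells the pooled share was 1.74% where it was 1 (median of 11544 UMIs), 1.75% where it was 2 (27863 UMIs), 1.66% where it was 3 (35984 UMIs), 1.72% where it was 4 (47983 UMIs) and 1.70% where it was 5 (54848 UMIs). In macrophage-like cells the shares for 1 to 3 were 0.661%, 0.521% and 0.541%, with medians of 1821, 4091 and 6965 UMIs.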
